A study of Mus musculus with 6 samples.

Results

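The genes described here are the 4 ERBB receptors, Egfr, Erbb2, Erbb3 and Erbb4, and 6 of their EGF-type ligands, Areg, Ereg, Hbegf, Nrg1, Tgfa and Btc, in mouse lung during endotoxaemia. They were chosen by family membership, with Erbb3 singled out because it was among the genes lowest with rhTM in these same arrays, so its difference between groups is given as a description without a test. All 10 genes had a probe on the array, out of 22815 genes with a matched probe. Of these 10, 9 passed the filter on dim probes and belonged to the 16362 genes that were tested. Erbb3 passed only through the saline mice and Ereg only through the rhTM mice, in each case the group where it was higher, so counts and medians over the 9 are descriptions.

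Lungs came from male C57BL6 mice, 10 weeks old, starved for 16 h and then injected i.p. with LPS at 20 mg/kg, the bacterial endotoxin that sets off lung inflammation. The saline group (n = 3) received control injections 3 and 24 h after LPS, and the rhTM group (n = 3) received recombinant human thrombomodulin, a soluble form of an endothelial anticoagulant receptor, at 30 mg/kg at the same times. Lungs were taken 30 h after LPS, and each mouse had its own 1-colour Agilent array, so every mouse of both groups carried LPS and no lung without LPS was analysed here. Signals are given as multiples of the array's 75th percentile, and a difference is the mean log2 signal of the rhTM mice minus that of the saline mice. Whole lung was measured, so fewer cells of a type and less RNA per cell cannot be told apart.

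ERBB receptors are tyrosine kinases that pair up when an EGF-type ligand binds. Egfr binds Areg, Tgfa, Hbegf, Ereg and Btc, Erbb3 and Erbb4 bind neuregulins such as Nrg1, Erbb2 has no known ligand and serves as the favoured partner, and Erbb3 signals mainly through its partners because its own kinase is weak. The ligands are made as membrane-bound precursors that metalloproteases release. In lung, these receptors are known for their part in growth and repair of airway and alveolar epithelium.

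The arrays were close to each other in brightness, with a 75th percentile of 673 to 838 and with 36243 to 40647 of 56605 probes well above background. Markers of lung cells were present on all 6 arrays. Sftpc of alveolar type 2 cells lay at 482 to 828 times the 75th percentile, Ager of alveolar type 1 cells at 133 to 173 and Scgb1a1 of airway club cells at 471 to 658. rhTM mouse 1 stood furthest from the others, with a median correlation of 0.981 to the other arrays, and 29.8% of all genes had their highest value in it. Saline mouse 1 differed in its spike-in slope, 0.826 against 1.07 to 1.09 on the other arrays. In the authors' own value table, the column of saline mouse 1 holds what the scanner output gives for rhTM mouse 2, and the reverse. Which of these assignments is right could not be decided from the sources used here. Values by the table are therefore given beside those by the scanner output for the members. For pathway genes and lists they are given where they differ by over 1.5 times. The arrays were on 2 slides. By the scanner output, saline mouse 1 and rhTM mouse 3 were on the second slide. By the table, every saline mouse was on the first slide and rhTM mice 2 and 3 on the second, so group and slide largely coincide there.

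No tested member passed the comparison of rhTM with saline by limma with Benjamini-Hochberg adjustment over all genes. Among the 7 tested members other than Erbb3 and Ereg, 0 passed an adjusted p of 0.05 and 0 had an unadjusted p under 0.05, with an adjusted p of 0.9999 for each. The background was the same, since 0% of the 16362 genes passed and 305 had an unadjusted p under 0.05. Of 16312 genes tested by the authors' table, where group and slide largely coincide, 2278 had an unadjusted p under 0.05 and 0 passed. By signs, 5 of the 9 members past the filter were higher and 4 were lower with rhTM, with a median difference of 0.15 on the log2 scale against 0.0026 over all genes, and that median was -0.05 without rhTM mouse 1 and 0.0036 by the authors' table. Every rhTM mouse lay below every saline mouse for 2.57% of all genes and above for 2.95%, and among the members Erbb3 alone had groups that did not overlap.

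**Figure D1:**
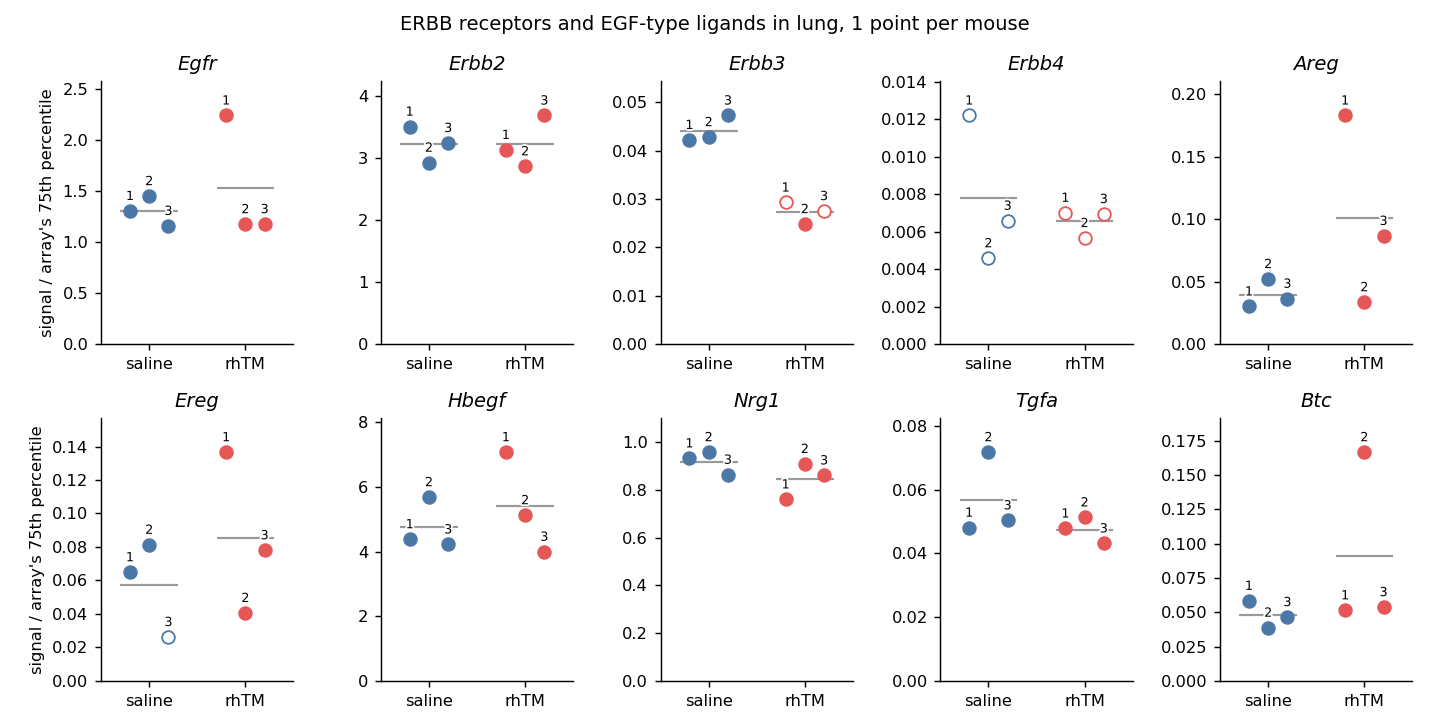
Signal of each of the 10 genes in each lung, as a multiple of the array's 75th percentile on a linear axis from 0; points are mice with their replicate numbers, open points were not well above background, and lines are group means. Erbb3 was lower in all 3 rhTM mice, whereas Areg, Ereg, Hbegf and Egfr peaked in rhTM mouse 1 and Btc in rhTM mouse 2.

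Egfr, the receptor for most of these ligands, measured 1.31, 1.45 and 1.16 in saline mice 1, 2 and 3 and 2.24, 1.18 and 1.18 in rhTM mice 1, 2 and 3. rhTM mouse 1 was the highest of the 6, while the other rhTM mice lay at the low end of the saline range. The difference was 0.17 (SE 0.27), with a 95% interval of -0.48 to 0.81 and an exact two-sided permutation p of 0.8, and it turned to -0.14 without rhTM mouse 1. It was 0.27 by the authors' table. With 3 mice against 3, this permutation test cannot go below 0.10. By the scanner output, other probes of Egfr, dimmer than the one used, gave differences of 0.03 and -0.24. The sign there depended on the probe. By the authors' table, both were higher on average with rhTM. The brighter of them then had every rhTM mouse above, at 0.336, 0.318 and 0.312 against 0.257, 0.303 and 0.261 with saline. By that table, 9.68% of all genes had every rhTM mouse above.

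Erbb2, the partner receptor without a known ligand, was the most even receptor. It measured 3.51, 2.93 and 3.25 in the saline mice and 3.13, 2.87 and 3.69 in the rhTM mice, and the groups overlapped throughout. The difference was -0.0026 (SE 0.14), with a 95% interval of -0.34 to 0.34 and an exact permutation p of 1. The second Erbb2 probe gave -0.07 by the scanner output. By the authors' table, the probe used gave 0.19, and the second went the other way. It then measured 0.961, 1.08 and 1.03 with saline and 0.960, 0.869 and 0.912 with rhTM.

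Erbb3, the neuregulin receptor with the weak kinase, measured 0.0422, 0.0428 and 0.0473 in the saline mice and 0.0293, 0.0248 and 0.0275 in the rhTM mice. All 3 rhTM mice were below all 3 saline mice, with means of 0.0441 ± 0.00276 (SD, n = 3) and 0.0272 ± 0.00224 (SD, n = 3), a difference of -0.70 on the log2 scale. The probe was dim. Its unscaled processed signal was 29.0, 35.1 and 37.9 units in saline mice and 21.6, 21.1 and 18.6 in rhTM mice. It was well above background in 3 of 3 saline mice but in 1 of 3 rhTM mice, mouse 2. For comparison, the lowest signal that any probe well above background reached was between 0.0173 and 0.0296 times the 75th percentile on the 6 arrays, and the rhTM values of Erbb3 fell in that range. Erbb3 had a single probe, so no other probe could be set beside it.

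By slide, the Erbb3 difference was -0.74 on the slide with 2 mice of each group and -0.62 on the slide with saline mouse 1 and rhTM mouse 3, a single pair. These are the values on which Erbb3 was picked, 2 of the 3 rhTM values were not above background, and no stability is read from them. The difference was -0.20 under another background correction (normexp with an offset of 50), which compresses dim signals and also made the differences of Areg, Ereg, Btc and Tgfa smaller. By the authors' table it was -0.19 with overlapping groups, since the lowest rhTM value, 0.0248, then counted as saline mouse 1 and a saline value, 0.0422, as rhTM mouse 2. The groups were therefore separate by the scanner output and not by the table.

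Genes with the profile most like that of Erbb3, judged by the mean absolute difference of centred log2 values over the 6 arrays, were Gabrq at 0.0744, Evx2 at 0.0953, Uck1 at 0.106, Ppp1r1b at 0.113 and Lrrn4cl at 0.114. Gabrq encodes a GABA receptor subunit, Evx2 a homeobox factor, Uck1 a uridine-cytidine kinase and Ppp1r1b the phosphatase inhibitor DARPP-32. Each was lower in all 3 rhTM mice than in any saline mouse, as the choice by profile brings about.

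Cell types in which Erbb3 is known to be expressed were looked at beside it, epithelium and Schwann cells. Of 10 alveolar type 2 genes, 9 were lower with a median of -0.12 (5 lower and -0.08 by the authors' table), and of 7 alveolar type 1 genes, 5 were lower with a median of -0.17 (6 lower and -0.07 by the table). Airway genes were higher for 5 of 10 with a median of 0.0088, and for 8 of 10 with a median of 0.44 by the table. The summed signals with saline and rhTM were 1332 to 1803 and 1305 to 1680 for alveolar type 2 cells, 322 to 378 and 300 to 346 for alveolar type 1 cells, and 933 to 993 and 773 to 1096 for airway epithelium. By the authors' table, the airway sums were apart, at 773 to 959 with saline and 971 to 1096 with rhTM, and those of both alveolar lists overlapped. Of 12 tested genes of general epithelium, 6 were higher and 6 lower with rhTM, and the summed signal of the list was 94.6 to 119 in saline mice and 87.8 to 110 in rhTM mice. Of 4 tested basal and squamous genes, 4 were lower, with a median of -0.65, while the authors' table gave 1 higher of 4 and a median of -0.26. Krt15, the lowest of them at -0.92 (-0.40 by the table), was above background in 3 of 3 saline but 2 of 3 rhTM mice. It passed through saline alone, so this count and median are descriptions. The summed signals of the 4 genes were 4.62 to 5.39 in saline and 4.23 to 5.22 in rhTM mice. Most of each sum was Trp63, at 3.65 to 4.82, which differed by -0.04 (0.18 by the authors' table), so the sums say little about the other genes. The defining basal keratin Krt5 was above background in all mice and measured 0.110, 0.129 and 0.0770 with saline and 0.0653, 0.0799 and 0.0852 with rhTM, and Krt4, Krt13 and Dsg3 did not pass the filter. For Schwann cells, 4 of 9 genes were higher and 5 lower, with a median of -0.01 (0.05 by the authors' table). Their sums ranged from 34.3 to 45.6 in saline and from 33.6 to 45.1 in rhTM mice. Among these, the lineage factor Sox10 differed by 0.38 (0.22 by the authors' table), with every rhTM mouse above every saline mouse by the scanner output, and Ngfr by -0.34. Foxd3, a factor of neural crest cells, was above background in 3 of 3 saline but 1 of 3 rhTM mice and passed through saline alone, and its difference of -1.39 was -0.53 without saline mouse 3 and -0.87 by the table. By the authors' table, the genes higher were 8 of 12 for general epithelium and 5 of 8 for Schwann cells. The part of any cell type in the Erbb3 values was not tested.

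Erbb4, the other neuregulin receptor, was not well above background in any of the 6 mice. Its unscaled signals were 3.77 to 8.39 units, and no fold is given.

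Among the ligands, Areg (amphiregulin, an Egfr ligand made by epithelium and by immune cells) had the largest difference by the scanner output over all 6 mice, whereas Ereg did by the authors' table and Btc without rhTM mouse 1. It measured 0.0303, 0.0523 and 0.0365 in the saline mice and 0.183, 0.0338 and 0.0868 in the rhTM mice, above background in all. rhTM mice 1 and 3 were above all saline mice, but rhTM mouse 2 lay within the saline range. The difference was 1.07 (SE 0.58), with a 95% interval of -0.31 to 2.45 and an exact permutation p of 0.3. It was 0.48 without rhTM mouse 1, 1.70 without rhTM mouse 2, 0.54 under normexp and 0.97 by the authors' table.

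Ereg (epiregulin, a ligand of Egfr and Erbb4) measured 0.0650, 0.0814 and 0.0263 in the saline mice and 0.137, 0.0407 and 0.0781 in the rhTM mice, and was above background in all but saline mouse 3. As for Areg, rhTM mouse 1 was highest and rhTM mouse 2 lowest of its group. The groups overlapped. Ereg passed the filter through rhTM alone, and its difference of 0.55 (SE 0.56) rests in part on the value of saline mouse 3 that was not above background. It was 0.058 without that mouse, 0.12 without rhTM mouse 1, 0.21 under normexp and 1.00 by the authors' table.

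Areg and Ereg were among the most variable of all genes between mice. Their SD of log2 signal over the 6 arrays was 1.00 and 0.83, at the 98.9th and 98.0th percentile of tested genes, while the median over all genes was 0.203. Btc, at 0.74, was at the 97.2nd percentile. The rank of Ereg is a description, since it rests in part on saline mouse 3, its lowest value, which was not above background. In the mouse genome Epgn, Ereg, Areg and Btc follow each other directly on chromosome 5 among protein-coding genes, so these 3 variable ligands share a locus, although Btc peaked in a different mouse from Areg and Ereg.

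Promoter sequences of the Areg and Btc genes are shown because these neighbours varied in different mice. Both are from RefSeq, build GRCm38.p6, 250 bases before to 50 after the start, written 5′ to 3′ on the gene's strand. Capitals mark matches to a cAMP response element (CRE, TGACGTCA) and a TATA box (TATAAA). Areg is at chr5:91139349-91139648 on the + strand and Btc at chr5:91402945-91403244 on the - strand.
Areg: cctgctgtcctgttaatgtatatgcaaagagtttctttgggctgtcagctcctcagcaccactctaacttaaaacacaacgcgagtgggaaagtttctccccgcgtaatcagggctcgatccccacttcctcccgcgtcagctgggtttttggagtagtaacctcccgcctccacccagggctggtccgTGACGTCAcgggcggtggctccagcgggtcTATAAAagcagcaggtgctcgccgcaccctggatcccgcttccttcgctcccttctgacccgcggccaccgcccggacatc
Btc: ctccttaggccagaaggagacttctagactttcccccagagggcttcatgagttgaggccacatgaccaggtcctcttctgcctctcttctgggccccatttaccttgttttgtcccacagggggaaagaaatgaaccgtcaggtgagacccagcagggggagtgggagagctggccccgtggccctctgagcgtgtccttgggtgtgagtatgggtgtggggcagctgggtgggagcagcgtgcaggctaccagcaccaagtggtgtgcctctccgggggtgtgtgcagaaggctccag

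The Areg window held a CRE starting 61 bases and a TATA box starting 31 bases before the start, and the Btc window held neither. Of 32851 promoter windows of 300 bases, 1.79% held the CRE and 13.6% the TATA box on either strand. The AP-1 motif TGANTCA, in 7.81% of windows, and the Egr motif GCGNGGGCG, in 5.55%, were in none of the 6 member promoters that could be matched, those of Egfr, Erbb2, Erbb4, Areg, Tgfa and Btc. These matches describe the letters in the windows and no more.

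Btc (betacellulin, a ligand of Egfr and Erbb4) measured 0.0585, 0.0389 and 0.0466 in the saline mice and 0.0516, 0.167 and 0.0539 in the rhTM mice. rhTM mouse 2 stood above the other 5 mice, which lay close together. The difference of 0.71 (SE 0.46), with an exact permutation p of 0.3, thus rested on 1 mouse, and that mouse is among those exchanged. It was 0.16 without that mouse and 0.40 under normexp. By the authors' table, where the high value belonged to saline mouse 1, the difference was -0.30. A second Btc probe was not above background in any mouse.

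Hbegf (heparin-binding EGF-like growth factor) measured 4.39, 5.68 and 4.23 in the saline mice and 7.08, 5.13 and 3.998 in the rhTM mice. rhTM mouse 1 was again the highest, and the other rhTM mice fell within or just below the saline range. The difference was 0.15 (SE 0.23), with a 95% interval of -0.40 to 0.71 and an exact permutation p of 0.7. It was -0.06 without rhTM mouse 1 and 0.0036 by the authors' table.

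Nrg1 (neuregulin 1, the ligand of Erbb3 and Erbb4) measured 0.932, 0.958 and 0.863 in the saline mice and 0.760, 0.909 and 0.861 in the rhTM mice. Its values were close together, with an SD over the 6 arrays of 0.12 that was at the 17.7th percentile of tested genes. The difference was -0.12 (SE 0.12), with a 95% interval of -0.42 to 0.17 and an exact permutation p of 0.2. Nrg1's other probes gave -0.28 and -0.20 by the scanner output, and the probe used gave -0.10 by the authors' table, so the sign was the same in each of these. By that table, the brighter of the other probes hardly differed, at 0.0498, 0.0717 and 0.0720 with saline and 0.0572, 0.0652 and 0.0665 with rhTM. The difference of the probe used was -0.05 both under normexp and without rhTM mouse 1.

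Tgfa (transforming growth factor alpha, an Egfr ligand) measured 0.0481, 0.0718 and 0.0504 in the saline mice and 0.0478, 0.0513 and 0.0432 in the rhTM mice. Saline mouse 2 was highest, and the remaining mice overlapped. The difference was -0.24 (SE 0.18), with a 95% interval of -0.67 to 0.20 and an exact permutation p of 0.4. It was -0.06 without saline mouse 2 and -0.07 under normexp. By the authors' table it was -0.30, every rhTM mouse was below every saline mouse, and the exact permutation p was 0.1, the smallest this design allows. By that table, 12.0% of all genes had every rhTM mouse below every saline mouse, 9.68% had every rhTM mouse above, and 0% passed limma's adjusted p of 0.05, Tgfa having an adjusted p of 0.43.

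**Figure D2:**
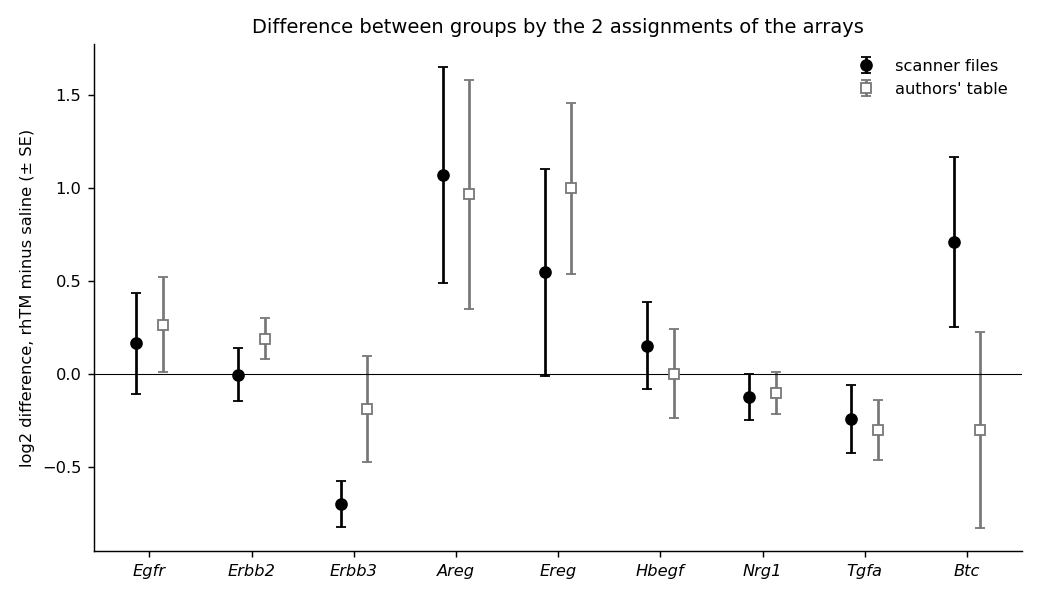
Difference of each member past the filter, as mean log2 signal of rhTM minus saline mice with its standard error from limma (n = 3 and 3), by the scanner output (filled circles) and by the authors' table (open squares). Erbb3 moved from -0.70 to -0.19, Btc turned from 0.71 to -0.30, and Areg stayed near 1 with wide errors.

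A further 5 EGF-type ligands were on the array. Egf, the founding ligand, measured 0.0639, 0.0837 and 0.0787 in the saline mice and 0.109, 0.0798 and 0.186 in the rhTM mice, with rhTM mice 1 and 3 above all saline mice. The difference was 0.65 (SE 0.31), with an exact permutation p of 0.2 and an adjusted p of 0.9999 by limma, and it was 0.43 by the authors' table and 0.31 without rhTM mouse 3. Nrg2 (neuregulin 2) measured 0.657, 0.556 and 0.515 with saline and 0.206, 0.610 and 0.499 with rhTM. Its difference of -0.53 became -0.05 without rhTM mouse 1, the lowest mouse, and a second, dimmer probe gave 0.06 by the scanner output. By the authors' table, the difference was -0.46 and the second probe was also lower on average. That probe then measured 0.0406, 0.0400 and 0.0263 with saline and 0.0222, 0.0281 and 0.0373 with rhTM. By the scanner output, Nrg4 differed by -0.19, and by 0.10 and 0.09 on its other probes. The probe used gave -0.11 by the authors' table and -0.04 without rhTM mouse 1. Epgn was above background in 1 of 6 mice and Nrg3 in 0 of 6.

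**Figure D3:**
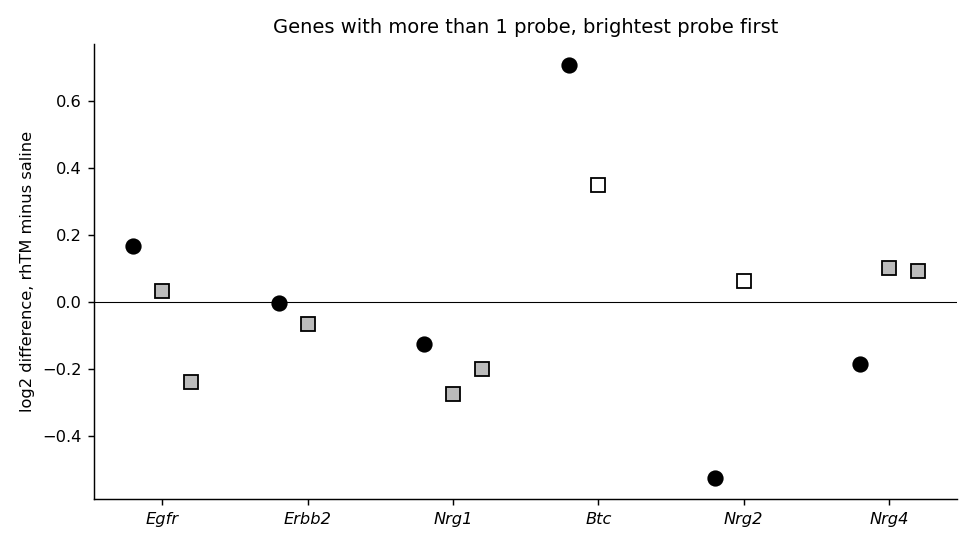
Difference between groups by the scanner output, as mean log2 signal of rhTM minus saline mice, for every probe of Egfr, Erbb2, Nrg1, Btc, Nrg2 and Nrg4. The circle is the brightest probe, which stands for the gene, squares are its other probes, and open symbols were not well above background in all 6 mice. Nrg3, with 2 probes and none above background in any mouse, is not drawn. By the scanner output, signs differed between probes for Egfr, Nrg2 and Nrg4, and were the same for the probes of Erbb2 and Nrg1. By the authors' table, not drawn here, they were the same for Egfr and Nrg2 and differed for Erbb2.

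rhTM mouse 1 held the highest value of 4 of the 9 members, Areg, Ereg, Hbegf and Egfr, or 44.4%, against 29.8% of all genes. Neutrophil markers were also highest in it for 5 of 9 genes, with a median of 0.21 above their mean on the log2 scale, and their summed signal was 928 to 1085 in saline mice and 945 to 1201 in rhTM mice. The neutrophil gene S100a8 measured 306, 235 and 272 with saline and 305, 257 and 306 with rhTM, a difference of 0.10. By the authors' table it was 0.26, with every rhTM mouse above every saline mouse, as in 2 of the 9 neutrophil genes against 9.68% of all genes. The neutrophil sums by that table were 928 to 1035 with saline and 1075 to 1201 with rhTM, and the median difference of the list was 0.05 by either assignment. Cdh1, the epithelial cadherin, was likewise highest in rhTM mouse 1, at 8.59 against 4.70 to 5.68 in the other mice, but 4 of 12 general epithelial genes (33.3%) peaked there, near the share of all genes. Alveolar type 2 genes were lowest in that mouse for 7 of 10 and endothelial genes for 5 of 10, against 4358 of all 16362 genes. The part of these cells in the ligand values was not tested.

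Ligand release was followed through 9 genes of metalloproteases and their cofactors. None of the 9 passed limma's threshold, 5 were higher and 4 lower, and the median difference was 0.03. The authors' table gave 4 higher of 9 and a median of -0.02, with 4 of 9 all below and 2 of 9 all above (12.0% and 9.68% of all genes), against 0 of 9 without overlap by the scanner output. Adam9 and Adam8, both membrane metalloproteases, had the largest differences by the scanner output, 0.17 (SE 0.13) and 0.17 (SE 0.18), each with an adjusted p of 0.9999, and they were 0.23 and 0.38 by the table, where Adam12 was largest at 0.42. Without rhTM mouse 1, Adam8 was 0.08. Adam17, the main sheddase of Areg, Tgfa and Hbegf, differed by -0.04 (SE 0.16), and by -0.29 in the table. Adam17 measured 1.76, 2.34 and 2.08 with saline and 2.00, 2.27 and 1.73 with rhTM, and it was named outside the rule for named genes because of this role.

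Of 19 genes that restrain ERBB receptors or take them off the surface, 12 were higher, 7 lower and 0 passed, with a median of 0.06 that was 0.0039 without saline mouse 3 and 0.03 without rhTM mouse 1. Spry4, a feedback inhibitor of RAS-ERK signalling, measured 1.96, 1.16 and 0.933 with saline and 1.46, 1.198 and 2.28 with rhTM. Its highest values, in saline mouse 1 and rhTM mouse 3, were on the same slide, and the difference was 0.30 (SE 0.34, adjusted p 0.9999), or 0.78 by the authors' table and 0.04 without rhTM mouse 3. Eps15, an adaptor of receptor endocytosis, differed by 0.12 (SE 0.12). In 0 of the 19 genes were the groups apart by the scanner output, whereas the table gave 6 of 19 with every rhTM mouse above, against 9.68% of all genes.

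Signal transduction downstream of the receptors was covered by 33 genes, of which 13 were higher, 20 lower and 0 passed, with a median of -0.01. Pik3ca, the catalytic subunit of PI3-kinase, measured 16.4, 3.80 and 6.98 with saline and 10.3, 7.08 and 18.8 with rhTM, and its highest values were again in saline mouse 1 and rhTM mouse 3. The difference was 0.55 (SE 0.58, adjusted p 0.9999), or 1.36 by the authors' table, 0.18 without rhTM mouse 3 and 0.06 without saline mouse 2. Stat3, a transcription factor that Egfr and cytokine receptors activate, measured 11.4, 16.6 and 16.4 with saline and 30.4, 16.0 and 14.3 with rhTM. Its difference of 0.39 (SE 0.31) was 0.05 without rhTM mouse 1 and 0.06 by the authors' table. Among the 33 genes 1 (3.03%), the kinase gene Akt1, had every rhTM mouse below every saline mouse, with a difference of -0.19, close to the 2.57% of all genes. By the authors' table the groups of Akt1 overlapped, and 6 other genes of the 33 were all below, against 12.0% of all genes, with 4 all above and a median of -0.13.

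Genes that growth factors induce through ERK gave 17 higher, 5 lower and 0 passing of 22, with a median of 0.10. Of these 22 genes, 15 (68.2%) were highest in rhTM mouse 1, against 29.8% of all genes, and the median was 0.0062 without that mouse and 0.07 by the authors' table. Egr2 measured 1.72, 1.53 and 1.32 with saline and 3.96, 1.58 and 2.21 with rhTM, a difference of 0.67 (SE 0.33) that was 0.30 without rhTM mouse 1 and 0.74 by the authors' table. Egr1 measured 2.89, 4.24 and 3.34 with saline and 8.71, 4.19 and 3.76 with rhTM, a difference of 0.58 (SE 0.33) that was 0.20 without that mouse and 0.22 by the table. Both encode zinc-finger factors that are induced within minutes of a growth stimulus, and the adjusted p was 0.9999 for each. By the scanner output, Fos, another immediate early gene, had every rhTM mouse above every saline mouse, 8.21, 4.96 and 5.25 against 4.36, 4.92 and 4.80. That was 1 of 22 genes (4.55%), against 2.95% of all genes. By the authors' table, the groups of Fos overlapped and its difference went from 0.35 to 0.23, and it was 0.12 without rhTM mouse 1, while 4 other genes of the 22 had every rhTM mouse above, against 9.68% of all genes.

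**Figure D4:**
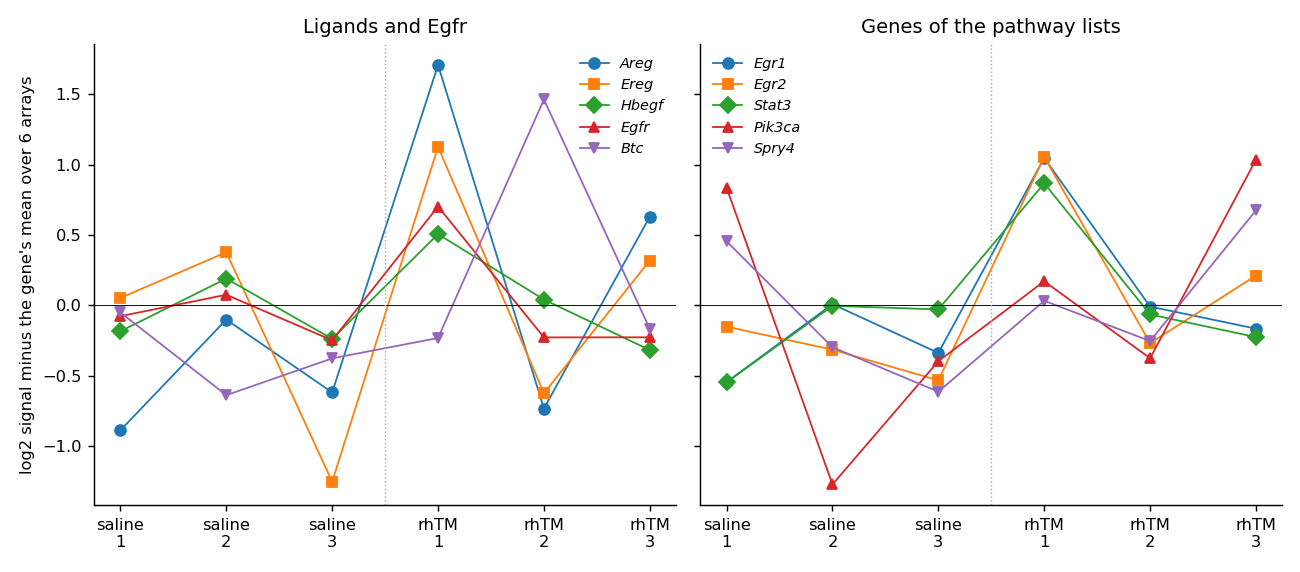
Log2 signal of each gene in each mouse minus the gene's mean over the 6 mice, for 4 ligands and Egfr (left) and for genes of the pathway lists (right); lines only join the points of a gene. Areg, Ereg, Hbegf, Egfr, Egr1, Egr2 and Stat3 were highest in rhTM mouse 1, Btc in rhTM mouse 2, and Pik3ca and Spry4 in rhTM mouse 3.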

How the data were processed

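RNA from the lungs of 3 mice given saline and 3 given rhTM was measured on 1-colour Agilent arrays. The authors deposited scanner output made with Feature Extraction 10.7.3.1 per the file headers (9.1 per the labels), whose processed signal is a background-corrected intensity on a linear scale, and a table of the same intensity values, in which saline mouse 1 and rhTM mouse 2 are exchanged (99.82% and 99.85% of the probes in these columns match the other mouse within 0.1%). The control injection is saline in the labels and PBS in the general methods, and the RNA kit is named differently in each.

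From the deposited intensities, control spots were left out, spots of a probe were averaged, and 398 of 56605 probes with outlier flags alone on some array were dropped. Each array's log2 signal was scaled by its 75th percentile. Probes were named through accessions matched to RefSeq genes of GRCm38.p6 (32994 probes for 22911 genes, of which 22815 kept a probe), and the brightest probe stood for its gene. A gene was tested when, in at least 1 group, its probe passed the scanner's background flag on all 3 arrays. The test was limma 3.58.1 in R 4.3.3, using lmFit and eBayes, p-values were adjusted by Benjamini-Hochberg over 16362 genes at a threshold of 0.05, and for members an exact permutation test, two-sided, was run as well. The fit was also run on simulated arrays with independent genes and no slide effect, and no result given here rests on that run. Named by rule were all members, the other ligands and defining cell markers. The rule also named the 2 genes with the largest absolute difference of each pathway list and the 5 profiles nearest Erbb3. Adam17, for its role, and Adam12, Akt1, Fos, Ngfr, Foxd3, Krt15 and Trp63 were named outside this rule, after their values were seen. The members and lists were chosen with earlier results of these data known. The labels name separate mice, and the number of arrays limits the precision. Alternatives were background correction, scaling, the authors' table, filters, slide and replicate number as blocks, averaging over all probes, leaving out single arrays and the methods' t-test.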

Additional observations from a re-analysis of the deposited data

How the results depend on the processing

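The count of genes passing limma's adjusted threshold, 0 by the scanner output, was 432 by the authors' table blocked on the slide, where rhTM mouse 1 is the only rhTM mouse on the slide that holds both groups. It was 1 without both exchanged arrays, 1 within slide 1 and 1 by the methods' t-test at its own thresholds (11 higher and 3 lower by the authors' table), and 0 to 3 when each array was left out, with 3 without saline mouse 1 and 2 without rhTM mouse 1. The count of members passing, Erbb3 not counted, was 0 under every alternative run. Signs turned for Btc by the authors' table (-0.30, and -0.38 when blocked on the slide), for Egfr by the mean of its probes (-0.014) and in the range with each array left out (-0.14 to 0.32), for Hbegf in that range (-0.061 to 0.35), and for Erbb2 by the authors' table (0.19, and 0.058 when blocked on the slide), without both exchanged arrays (0.14, where Ereg was 1.16, Btc 0.31, Egfr 0.32, Tgfa -0.40 and Areg 1.53) and in the range with each array left out (-0.10 to 0.079). Normexp gave Erbb3 -0.20, Areg 0.54, Ereg 0.21, Btc 0.40, Tgfa -0.066 and Nrg1 -0.054. Erbb3 was -0.19 by the authors' table and -0.33 by that table blocked on the slide. That last setting gave Areg 2.19, Ereg 1.63, Hbegf 0.51, Nrg1 -0.26 and Egfr 0.84. With each array left out, Areg was 0.48 to 1.70, Ereg 0.058 to 0.996, Btc 0.16 to 1.00, Nrg1 -0.18 to -0.052 and Tgfa -0.35 to -0.057. The median of the signal transduction list was -0.13 by the authors' table and -0.083 to 0.041 with each array left out, and that of the shedding list was -0.021 and -0.014 to 0.086. With each array left out, the median of the inhibitor list was 0.0039 to 0.081, lowest without saline mouse 3, and that of the induced genes 0.0062 to 0.18, lowest without rhTM mouse 1. The same ranges were 0.31 to 0.92 for Egf, -0.84 to -0.054 for Nrg2, -0.37 to -0.040 for Nrg4, 0.075 to 0.34 for Adam8, 0.086 to 0.24 for Adam9, -0.15 to 0.058 for Adam17, 0.042 to 0.61 for Spry4, 0.072 to 0.20 for Eps15, 0.057 to 1.11 for Pik3ca, 0.048 to 0.59 for Stat3, -0.25 to -0.098 for Akt1, 0.12 to 0.49 for Fos, 0.20 to 0.81 for Egr1 and 0.30 to 0.97 for Egr2. The causes of these shifts were not tested. Areg, Nrg1 and Tgfa did not change sign in the alternatives that could move them; no filter, the slide block and the replicate block leave a difference as it is by construction. Dim probes such as those of Erbb3, Areg, Ereg, Tgfa and Btc lie close to background, which limits what their signals can show.

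Same-numbered mice of the 2 groups did not deviate together (correlations of -0.30, 0.44 and -0.45), so the numbers do not pair the samples. The highest correlation between mice of different groups, 0.64, was that of saline mouse 1 and rhTM mouse 3, which shared a slide by the scanner output. With the replicate number as a block, 0 genes passed and Erbb3 differed by -0.70.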
